A study of Mus musculus with 4 samples.

Results

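The genes described here are 9 factors that astrocytes release and that are known to act on the formation or maturation of synapses. They are the thrombospondins Thbs1, Thbs2, Thbs3 and Thbs4, the SPARC family genes Sparc and Sparcl1, the glypicans Gpc4 and Gpc6, and the chordin-like gene Chrdl1. The rule takes them by gene symbol and uses no measured value, although earlier results of these data were known when the set was drawn up. All 9 were found among the 45703 genes of the count table. The data came from 4 cultures of cortical astrocytes of the CD-1 mouse, an outbred strain with no engineered allele in the labels. The cells came from frontal cortex of pups at postnatal day 4 and were kept in serum-containing medium supplemented with B27 and EGF. Reseeding followed on day 6 in vitro, and RNA was taken another 3 days on, once the cells had spent 1 h in serum-free Ham's medium. The labels give no sorting step and no treatment contrast, so all 4 cultures form 1 group, which the series calls biological replicates. Neither the number of animals behind a culture nor the number of preparations is in the labels, so the p-values below cover only the spread among these 4 libraries, which may be technical.

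Thrombospondins are secreted multimeric glycoproteins that bind the calcium channel subunit encoded by Cacna2d1 on neurons and lead to structurally complete excitatory synapses that lack AMPA receptors. Hevin, the product of Sparcl1, promotes excitatory synapses by bridging adhesion proteins of both sides of the synapse, and SPARC, the product of Sparc, is known to block that action of hevin. Glypicans are heparan sulfate proteoglycans held by a lipid anchor, and released glypican 4 and glypican 6 recruit AMPA receptors to synapses. Chordin-like 1 is a secreted binder of bone morphogenetic proteins (BMP) and is known to promote synapse maturation through a change in AMPA receptor subunits.

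The libraries held 37300485 to 42369109 counts, of which 95.6% to 95.9% fell in protein-coding genes, and the 9 factors took 0.479% to 0.555% of all counts. Cultures 1, 2 and 3 lay closer to each other than to culture 4, with a chi-square per degree of freedom of 2.11 to 3.17 between them, and 39.3 to 41.1 between culture 4 and each of them. All 12 astrocyte markers were expressed in every culture, at a summed level of 7814 to 9558 CPM (a count scaled to a library of 1000000 counts). Markers listed for other cell types were expressed in part. Of 7 microglial markers 6 were expressed in every culture (summed 67.0 to 110.2 CPM), of 8 fibroblast markers 4 (512.2 to 1424 CPM, with Dpt at 0 counts), of 7 mural cell markers 4 (2002 to 2126 CPM), of 7 endothelial markers 2 (7.77 to 14.6 CPM), of 7 oligodendrocyte lineage markers 5 (1536 to 1681 CPM) and of 7 neuronal markers 3 (32.0 to 37.4 CPM). The mural sum was mostly Acta2 and the oligodendrocyte sum mostly Olig1, which are not particular to those cells. Several markers that were not expressed had few counts in all. They included Rbfox3, Slc17a7 and Snap25 of the neuronal list (12, 24 and 82), and Cldn5, Tek and Cdh5 of the endothelial (1, 8 and 19). Others were Sox10 and Mog of the oligodendrocyte list (9 and 1), Kcnj8 and Abcc9 of the mural (9 and 14), and Lum of the fibroblast (34). The lists therefore do not settle which of these cell types were present. In such bulk RNA, fewer cells of a type and less RNA per cell cannot be told apart.

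Of the 9 factors, 8 were expressed, meaning at least 1 CPM in every culture, while 32.2% of all 45703 genes passed that minimum. Sparc was the 11th most abundant gene of the whole table in CPM and Sparcl1 the 65th, followed by Thbs1 at rank 173 and Gpc4 at rank 203. Thbs2, Chrdl1, Gpc6 and Thbs3 lay at ranks 2819 to 4501. Thbs4 was the only factor that did not pass, with 1.06 CPM in culture 4 and 0.75 to 0.85 CPM in the others. The median over genes expressed in every culture was 26.9 CPM, and each of the 8 expressed factors was above it.

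**Figure D1:**
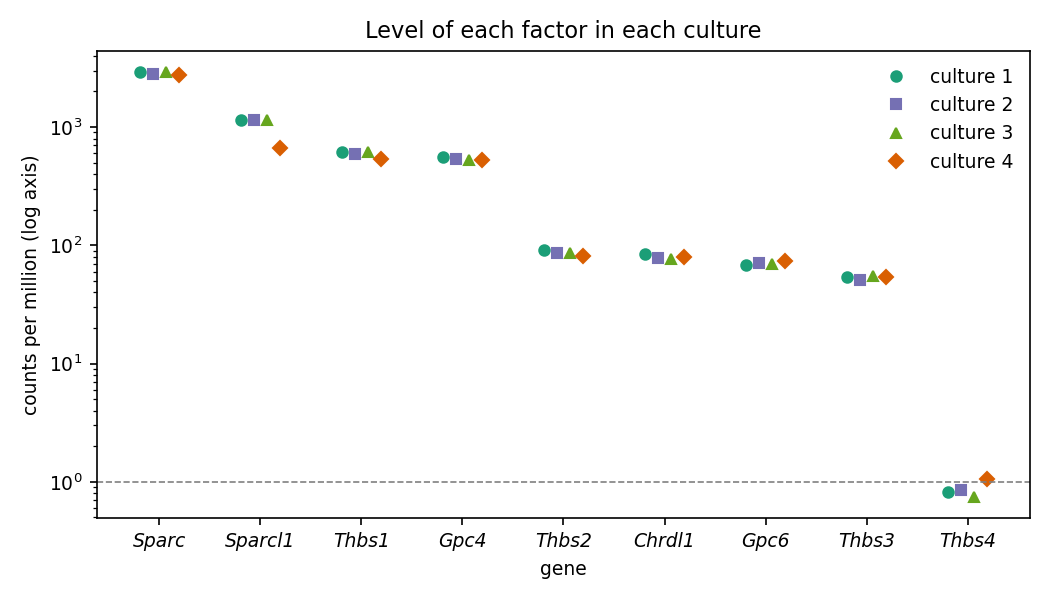
Level of each factor in CPM (log axis) in each of the 4 cultures, with genes in order of mean level and a dashed line at 1 CPM. Sparc stood at 2774 to 2922 CPM, and Sparcl1 had 1 culture apart, at 669.7 CPM in culture 4 against 1139 to 1158 CPM in the others.

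Sparc (GeneID 20692; GRCm38.p6 chromosome 11, 55394159 to 55420080, minus strand) encodes a secreted calcium-binding matrix protein. It had 2922, 2819, 2912 and 2774 CPM in cultures 1 to 4. These values lay within a coefficient of variation of 2.52%. Sparcl1 (GeneID 13602; chromosome 5, 104079108 to 104114088, minus strand) had 1158, 1158 and 1139 CPM in cultures 1, 2 and 3 and 669.7 CPM in culture 4. Culture 4 was thus low and the other 3 were nearly equal. The lncRNA LOC330143 lies opposite to part of Sparcl1 with 74 counts in all, against 164874 counts for Sparcl1. Counts of both genes were in part not whole numbers, so some of their reads may be shared with other features.

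For comparisons between genes, each CPM was divided by the gene's combined exon length in kilobases, as deposited, which gives RPKM. Sparc had 1061 ± 26.8 RPKM and Sparcl1 301.5 ± 70.5 RPKM (SD, n = 4, here and below). The ratio of Sparc to Sparcl1 was 3.21, 3.09, 3.25 and 5.26 in cultures 1 to 4. The log2 ratio was 1.85 ± 0.13 (SE; higher in 4 of 4 cultures; edgeR, adjusted p = 4.81e-06), a 3.60-fold difference with a 95% interval of 2.89 to 4.49. Without moderation across genes the SE was 0.19 (edgeR, adjusted p = 0.00256), so the interval is wider. The ratio of culture 4 lay above the interval given. In these quasi-likelihood tests every factor was set against every other gene, and 97.1% of all 153900 comparisons passed an adjusted p of 0.05. A call by itself therefore says little, and sizes matter more. Sparc was called higher per length than 17081 of 17100 other genes and lower than 15.

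Within the SPARC family of 8 genes, Sparc took 65.1 ± 2.11% of the summed RPKM, Sparcl1 18.4 ± 3.60% and Fstl1, which encodes a follistatin-like secreted protein, 16.1 ± 1.53%. The other 5 genes, Spock1, Spock2, Spock3, Smoc1 and Smoc2, held 0.00488% to 0.170% each. Fstl1 had 261.7 ± 10.9 RPKM, and with the deposited length Sparcl1 was not told apart from it, at a log2 ratio of 0.17 ± 0.23 (SE; edgeR without moderation across genes, adjusted p = 0.506). With moderation throughout, both the call and the direction turned with the length. The deposited length gave 1.13-fold (edgeR with moderation, adjusted p = 0.416). The longest GENCODE transcript gave 1.47-fold (edgeR with moderation, adjusted p = 0.00927), and the longest coding sequence gave 0.50-fold (log2 ratio -0.99; edgeR with moderation, adjusted p = 3.39e-06). Without culture 4 the ratio was 1.31-fold with the deposited length (edgeR with moderation, adjusted p = 1.85e-13). These p-values with moderation are too small, since all tests of Sparcl1 share its counts. Other lengths were not fitted without moderation, so the change of call is not firm. With the deposited length, Sparcl1 was above Fstl1 in cultures 1, 2 and 3, with 333.1 to 338.7 RPKM against 253.7 to 258.8 RPKM, and in culture 4 it was below it, with 195.8 RPKM against 277.6 RPKM. The longest GENCODE transcript gave the same direction in each culture. Cultures 1, 2 and 3 had 412.8 to 419.9 CPM per kilobase for Sparcl1 against 241.6 to 246.5 for Fstl1. Culture 4 had 242.7 against 264.4 CPM per kilobase. Of these lengths only the longest coding sequence turned the direction of the ratio over all cultures.

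Among the thrombospondins, Thbs1 (GeneID 21825; chromosome 2, 118111876 to 118127133, plus strand) was the leading transcript. It had 618.7, 594.3, 620.3 and 533.7 CPM in cultures 1 to 4, with culture 4 the lowest. Thbs2 (GeneID 21826; chromosome 17, 14665500 to 14694262, minus strand), the closest relative of Thbs1, had 90.7, 87.0, 86.1 and 80.8 CPM, again lowest in culture 4. Thbs3 (GeneID 21827; chromosome 3, 89215180 to 89226841, plus strand), of the pentameric subgroup, had 54.1, 50.6, 54.9 and 54.1 CPM. Thbs4 (GeneID 21828; chromosome 13, 92751586 to 92794818, minus strand), which is known from muscle, tendon and reactive glia, had only 34, 34, 28 and 45 counts, or 0.83, 0.85, 0.75 and 1.06 CPM. All 4 thrombospondin genes had whole counts in every culture. The lncRNA Gm13986 starts near Thbs1 on the other strand and had 18 counts in all. The lncRNA LOC115489723 lies opposite to part of Thbs3, with 59 counts in all against 8594 for Thbs3.

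Start regions are shown for Thbs2, Thbs3 and Thbs4, the thrombospondins among the factors that have an entry, because their base composition differs widely. Each is the RefSeq window of GRCm38.p6 from 250 bases before to 50 bases after the gene's start, written along the gene's strand. Capitals mark matches on either strand to GGGCGG, the motif of SP1, or to TATAAA, a common form of the motif that binds TBP.
Thbs2 (chr17:14694213-14694512, minus strand): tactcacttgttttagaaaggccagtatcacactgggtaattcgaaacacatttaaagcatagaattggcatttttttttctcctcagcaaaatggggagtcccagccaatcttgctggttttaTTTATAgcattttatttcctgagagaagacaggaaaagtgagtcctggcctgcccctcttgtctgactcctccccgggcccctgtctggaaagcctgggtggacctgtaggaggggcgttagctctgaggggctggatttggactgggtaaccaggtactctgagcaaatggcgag
Thbs3 (chr3:89214930-89215229, plus strand): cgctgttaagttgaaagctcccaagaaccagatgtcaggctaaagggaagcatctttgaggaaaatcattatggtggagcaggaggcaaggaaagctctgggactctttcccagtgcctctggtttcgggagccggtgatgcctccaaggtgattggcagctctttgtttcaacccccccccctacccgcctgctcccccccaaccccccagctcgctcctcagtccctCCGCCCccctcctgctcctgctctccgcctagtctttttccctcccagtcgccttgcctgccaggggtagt
Thbs4 (chr13:92794769-92795068, minus strand): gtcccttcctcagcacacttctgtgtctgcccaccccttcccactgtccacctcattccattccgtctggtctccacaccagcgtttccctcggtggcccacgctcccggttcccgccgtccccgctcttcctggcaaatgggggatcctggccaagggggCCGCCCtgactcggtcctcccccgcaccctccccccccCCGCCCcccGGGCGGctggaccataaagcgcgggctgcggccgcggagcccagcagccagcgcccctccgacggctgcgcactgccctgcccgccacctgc
The window of Thbs2 had 48.3% G and C with 4 CpG, that of Thbs3 59.0% with 8 CpG and that of Thbs4 72.0% with 24 CpG. Gpc4 and Sparc, which also have an entry, had 66.7% with 22 CpG and 55.3% with 4 CpG, both at higher levels than these 3. A relation of base composition to level was not tested, and only 5 factors have an entry. The median of all 32817 windows was 52.7% with 7 CpG. Thbs2 held 1 match to TATAAA, which starts 126 bases before the gene's start, and 13.6% of all windows hold one. Thbs3 held 1 match to GGGCGG at 21 bases before the start and Thbs4 held 3, at 89, 51 and 42 bases before it, while 35.6% of all windows hold at least 1. TGACTCA (AP-1), held by 5.21% of all windows, was in none of the 3. Of the other factors with an entry, Gpc4 held 1 match to GGGCGG, at 217 bases before its start, and Sparc held no match to these motifs. Matches to letters are a description and say nothing of binding.

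Per length, Thbs1 had 101.2 ± 6.92 RPKM, Thbs2 14.5 ± 0.69, Thbs3 13.1 ± 0.47 and Thbs4 0.27 ± 0.04 RPKM. Comp, the fifth family gene, which encodes a cartilage matrix protein, had 0.066 ± 0.021 RPKM from 32 counts in all. Thbs1 took 78.3 ± 0.89% of the summed RPKM of the family, Thbs2 11.3 ± 0.31% and Thbs3 10.2 ± 0.70%. Thbs1 was 6.95-fold above Thbs2 (log2 ratio 2.80 ± 0.06 SE; 4 of 4 cultures; edgeR, adjusted p = 1.67e-10), with a ratio of 6.90, 6.92, 7.29 and 6.69 in cultures 1 to 4. Thbs2 and Thbs3 were close, with a ratio of 1.16, 1.18, 1.08 and 1.03 in cultures 1 to 4. The log2 ratio was 0.15 ± 0.05 (SE; 4 of 4 cultures; edgeR, adjusted p = 0.0203), and the 95% interval of the ratio was 1.02 to 1.21. This call was lost without culture 1 (adjusted p = 0.0845), without culture 2 (adjusted p = 0.169) or without culture 3 (adjusted p = 0.067, edgeR in each case). It was also lost when cultures 1 to 3 were summed as 1 sample (edgeR, adjusted p = 0.409), so these neighbours were not told apart firmly. Thbs3 was 47.9-fold above Thbs4 (log2 ratio 5.58 ± 0.13 SE; 4 of 4 cultures; edgeR, adjusted p = 7.53e-11).

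**Figure D2:**
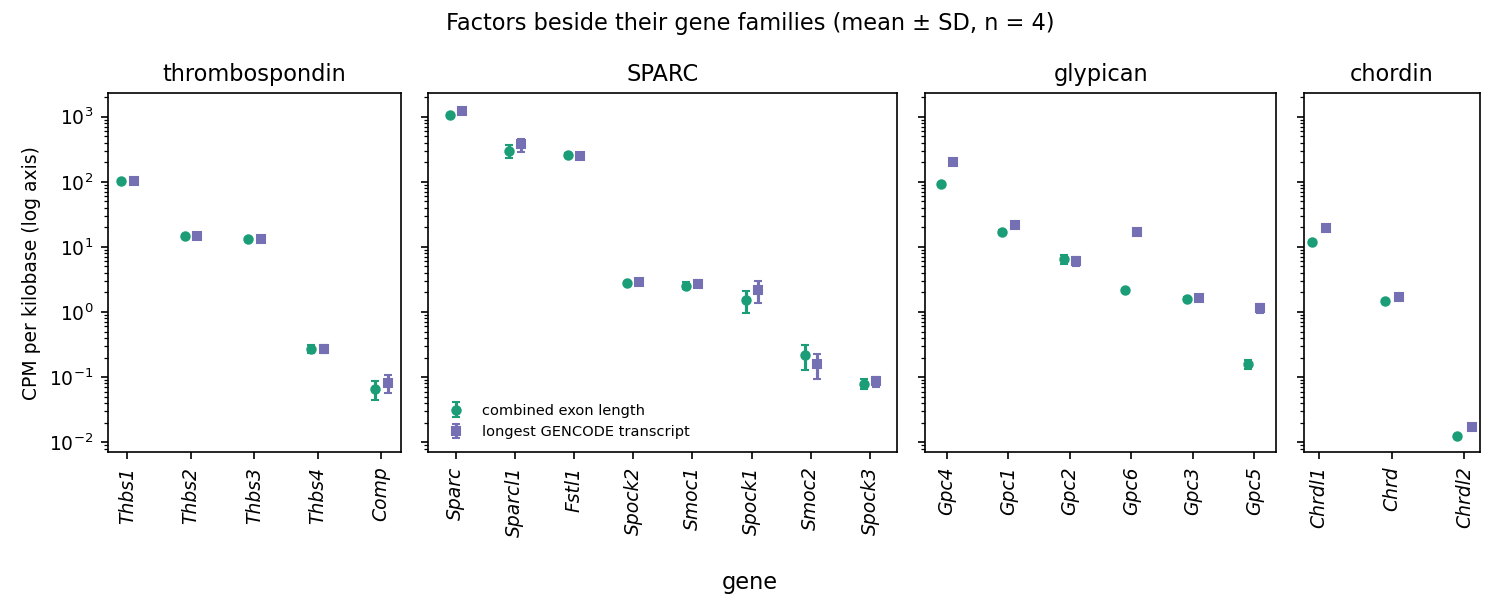
Mean level per length (CPM per kilobase, log axis) ± SD over 4 cultures for the genes of the 4 families, with the deposited combined exon length (circles) and the longest GENCODE transcript (squares). Chrdl2, with 6 counts in all, has no bar because its SD exceeded its mean. Gpc6 and Gpc5 moved most with the length used.

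Of the glypicans, Gpc4 (GeneID 14735; chromosome X, 52051007 to 52164923, minus strand) had 553.7, 533.7, 527.0 and 521.8 CPM in cultures 1 to 4, with a coefficient of variation of 2.62%. Gpc6 (GeneID 23888; chromosome 14, 116924920 to 117979529, plus strand) had 67.6, 70.7, 69.0 and 73.7 CPM. Gpc4 was the highest glypican in all 4 cultures by either measure of length. Of the other glypicans, Gpc1, which is common in brain, had 90.4 ± 4.96 CPM, Gpc2, known from developing neurons, 25.7 ± 4.02 CPM, Gpc3 3.65 ± 0.20 CPM and Gpc5 3.25 ± 0.51 CPM. Counts of Gpc4 and Gpc6 were in part not whole numbers, as were those of Chrdl1. Gpc6 overlaps 5 RNA genes of the annotation (Gm41246, Gm52112, Gm52111, Gm52110 and Mir6239), which had 0 to 6 counts each over all cultures.

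The place of Gpc6 depended on its length. The deposited combined exon length of Gpc6 is 31860 bases, while its longest GENCODE transcript (release M21, same build) has 4146 bases, a ratio of 7.68. For Gpc4 the lengths are 5854 and 2651 bases, a ratio of 2.21, and for Chrdl1 6781 and 4096 bases, a ratio of 1.66. The corresponding ratios of Thbs1, Thbs2, Thbs3 and Thbs4 were at most 1.01, and that of Sparcl1 was 1.24. With the deposited length Gpc6 had 2.21 ± 0.08 RPKM, and with the GENCODE transcript 16.9 ± 0.64. Its share of the summed glypican level was 1.86 ± 0.10% in the first case and 6.81 ± 0.36% in the second. Gpc4 held 76.8 ± 0.86% and 80.9 ± 0.65%.

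Gpc4 was 41.4-fold above Gpc6 with the deposited length (log2 ratio 5.37 ± 0.05 SE; 4 of 4 cultures; edgeR, adjusted p = 1.22e-11), where GENCODE lengths gave 11.9-fold. Gpc4 was 5.39-fold above Gpc1 with the deposited length (4 of 4 cultures; 9.31-fold with GENCODE lengths), at an adjusted p of 4.19e-10 by edgeR. Gpc6 was below Gpc2 with the deposited length, at 0.34-fold, and above it with GENCODE lengths, at 2.83-fold. Which of these was called higher thus depended on the length alone. The choice does not touch the comparison of 1 gene between cultures.

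Chrdl1 (GeneID 83453; chromosome X, 143285674 to 143394263, minus strand) had 83.7, 78.3, 76.7 and 79.1 CPM in cultures 1 to 4, with culture 4 inside the range of the others. It had 11.7 ± 0.44 RPKM and was 8.03-fold above Chrd, which encodes chordin, a BMP antagonist of early development (log2 ratio 3.00 ± 0.09 SE; edgeR, adjusted p = 6.31e-11; 11.2-fold with GENCODE lengths). Chrd had 7.61 ± 0.40 CPM. Chrdl2 had 6 counts in all. Chrdl1 took 88.8 ± 0.66% of the summed RPKM of these 3 genes.

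**Figure D3:**
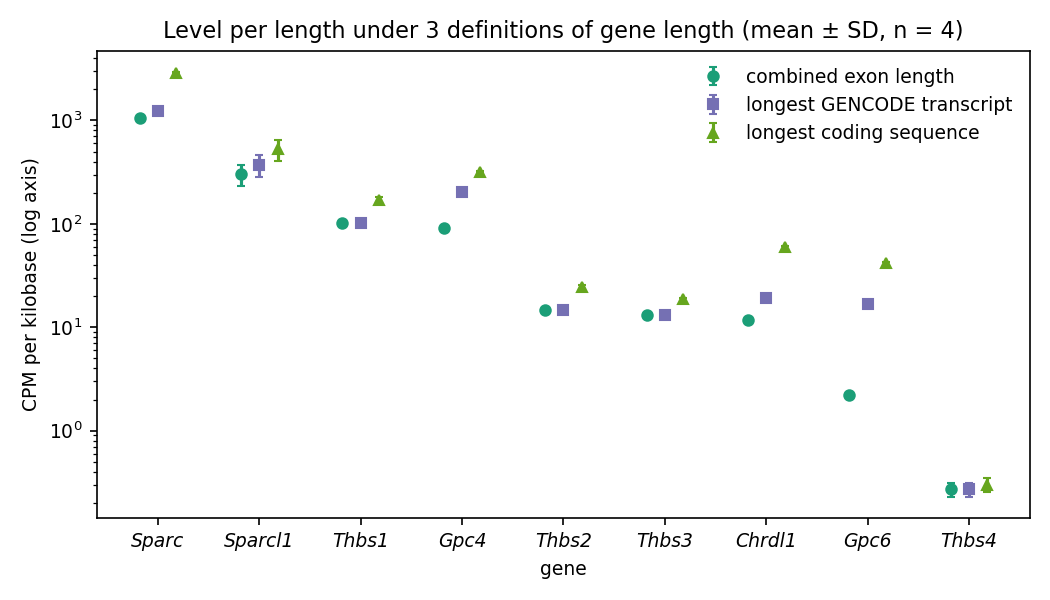
Mean level per length (CPM per kilobase, log axis) ± SD over 4 cultures of the 9 factors, in order of the level per combined exon length, with 3 definitions of gene length. Sparc and Sparcl1 lead and Thbs4 is last under each, while Gpc4, Gpc6 and Chrdl1 change place among the thrombospondins.

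With the deposited length the order was Sparc, Sparcl1, Thbs1, Gpc4, Thbs2, Thbs3, Chrdl1, Gpc6 and Thbs4. Neighbours in this order all differed (8 of 8 pairs, edgeR, adjusted p under 0.05, where 97.1% of all comparisons were called), and so did all 36 pairs. Of the 8 neighbouring pairs 3 were close, namely Thbs1 over Gpc4 at 1.11-fold (95% interval 1.02 to 1.21; edgeR, adjusted p = 0.0254), Thbs2 over Thbs3 as above, and Thbs3 over Chrdl1 at 1.12-fold (1.04 to 1.20; edgeR, adjusted p = 0.00731). The call of Thbs1 over Gpc4 did not hold when culture 1, 2 or 3 was left out (edgeR, adjusted p = 0.113, 0.114 and 0.165), nor that of Thbs3 over Chrdl1 without culture 3 (edgeR, adjusted p = 0.0549). Both were lost with cultures 1 to 3 summed (edgeR, adjusted p = 0.518 and 0.0774). With GENCODE lengths the order became Sparc, Sparcl1, Gpc4, Thbs1, Chrdl1, Gpc6, Thbs2, Thbs3 and Thbs4, and the same order was found with the longest coding sequence. Gpc4 had 201.5 ± 5.28 and Thbs1 101.2 ± 6.92 CPM per kilobase with GENCODE lengths, and Chrdl1 had 19.4 ± 0.73 CPM per kilobase against 14.6 ± 0.69 for Thbs2. The places of Sparc, Sparcl1 and Thbs4 were the same under all 3 lengths.

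**Figure D4:**
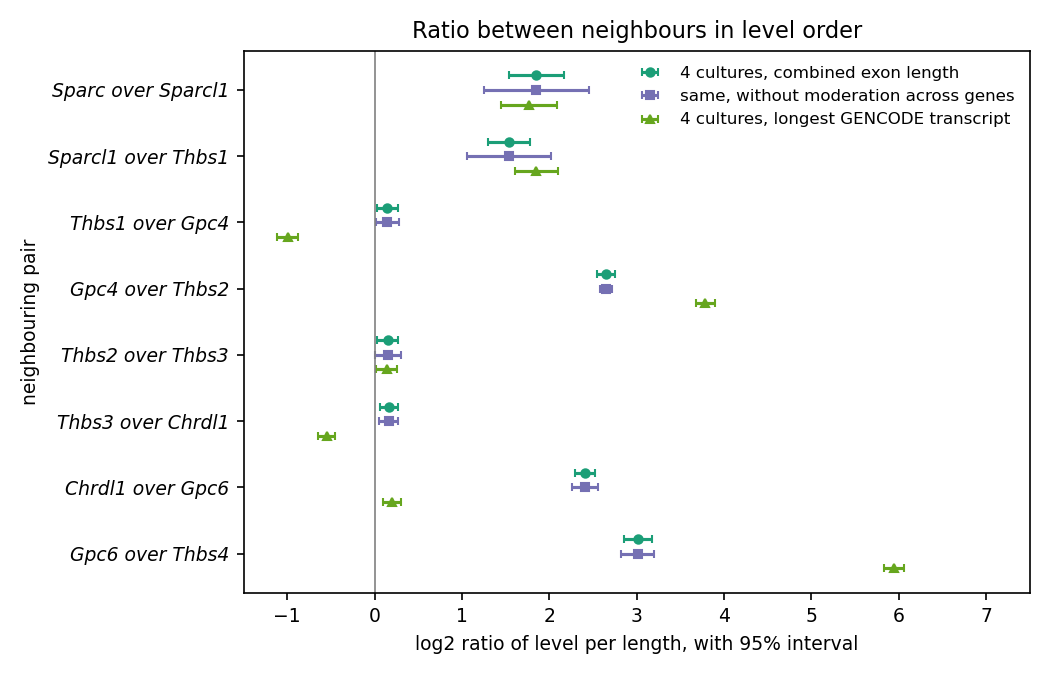
Log2 ratio of the level per length between neighbours in the order of the 9 factors, with 95% intervals, from all 4 cultures with the deposited length (circles), the same without moderation across genes (squares) and with the longest GENCODE transcript (triangles). Thbs1 over Gpc4 and Thbs3 over Chrdl1 change sign with the GENCODE length, and Thbs2 over Thbs3 stays close to 0.

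Between the cultures, 8 of the 9 factors stayed within 1.5-fold of the mean of the other cultures in every culture, and Sparcl1 in culture 4 did not. Its level there was 0.58-fold the mean of cultures 1, 2 and 3, a log2 deviation of -0.78. In culture 4, 5.66% of the 15217 genes with a mean of at least 1 CPM were lower by more than 1.5-fold, and 2.42% were higher. No factor was past 1.5-fold in the other cultures (0 of 9 in each direction). There, 0.572% of all genes were higher and 0.519% lower in culture 1, 0.69% higher and 0.289% lower in culture 2, and 0.769% higher and 0.381% lower in culture 3. Each deviation rests on 1 library and was not tested. Thbs4 in culture 4 was 1.31-fold the mean of the others, from 45 counts against 28 to 34. Thbs1 and Thbs2 in culture 4 were 0.87-fold and 0.92-fold, and Sparc, Gpc4, Gpc6, Chrdl1 and Thbs3 lay between 0.96-fold and 1.07-fold.

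**Figure D5:**
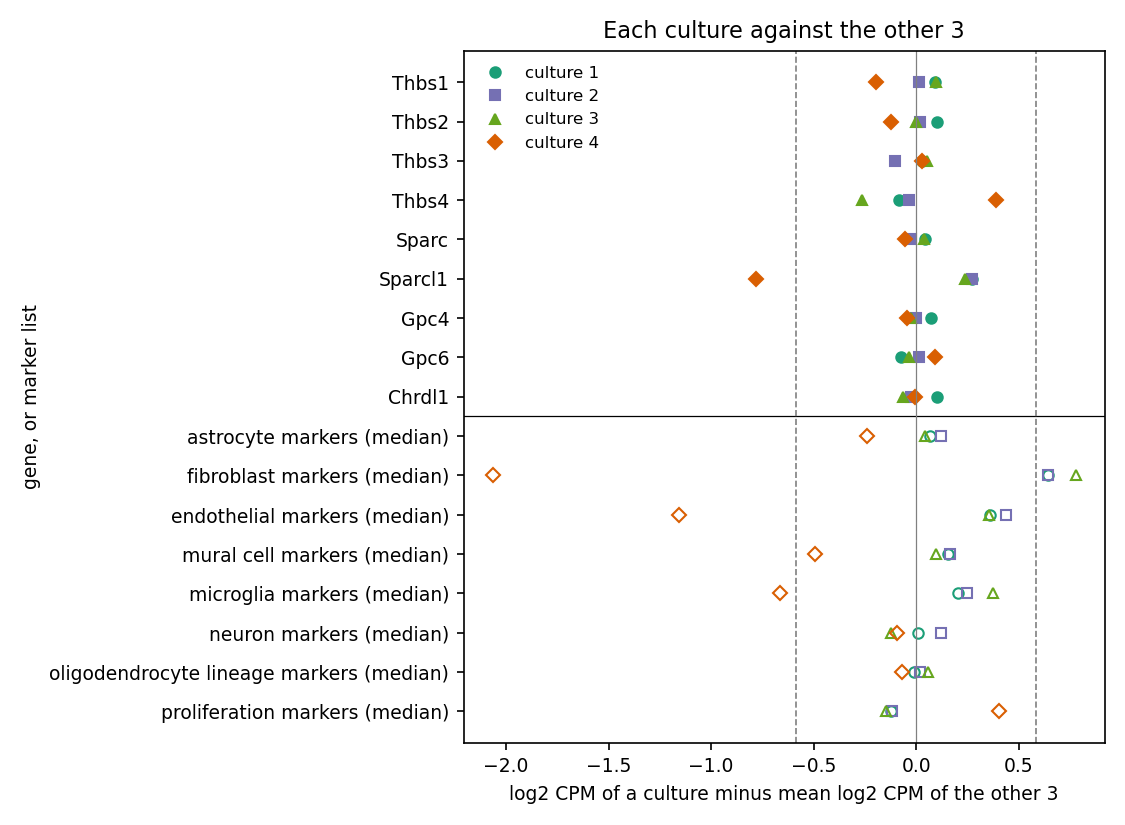
Log2 CPM of each culture minus the mean log2 CPM of the other 3, for the 9 factors (filled symbols) and as the median of each marker list (open symbols), with dashed lines at 1.5-fold. Sparcl1 in culture 4 lies at -0.78 beyond the line, beside lower medians of the fibroblast, endothelial (2 genes) and microglial lists in the same culture. The mural median (4 genes) was also lower there, at -0.49, short of the line.

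Other values moved in the same culture. The fibroblast list summed to 512.2 CPM in culture 4 and to 1338 to 1424 CPM in the others. In culture 4, 4 of its 5 genes with a mean of at least 1 CPM were lower by more than 1.5-fold, and Pdgfra was higher, at 20.5 CPM against 12.03 to 13.5 CPM. The endothelial list summed to 7.77 CPM in culture 4 against 13.6 to 14.6 CPM, of which Flt1 had 1.53 CPM against 6.06 to 6.58 CPM and Kdr 5.62 CPM against 6.50 to 6.91 CPM. The other 5 endothelial markers had means under 1 CPM. The mural list summed to 2060 CPM in culture 4, inside the range of the others, and mostly from Acta2. Of its 4 genes with a mean of at least 1 CPM, 3 were lower in culture 4 and 1 was higher. Their median log2 deviation was -0.49. The microglial list summed to 67.0 CPM against 102.7 to 110.2 CPM, the astrocyte list to 7814 CPM against 9398 to 9558 CPM, and the proliferation list to 1996 CPM against 1446 to 1453 CPM. Among astrocyte markers 8 of 12 were lower in culture 4, among them Gfap at 779.7 CPM against 1498 to 1555 CPM, and 4 were higher. Past 1.5-fold, 3 of the 12 astrocyte and 5 of the 7 microglial markers were lower and 0 were higher. The neuronal list summed to 32.0 CPM against 33.8 to 37.4 CPM, and the oligodendrocyte list to 1681 CPM against 1536 to 1583 CPM. The part of any of these lists in the lower Sparcl1 was not tested.

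The spread between cultures was read from edgeR's biological coefficient of variation (BCV). It was 0.198 for Sparcl1, above that of 92.5% of 17105 genes, and 0.124 for Thbs4, above that of 72.0%. The other 7 factors were below the median of 0.0941, from 0.0594 for Gpc6 to 0.0826 for Thbs1. Without culture 4 the value of Sparcl1 was 0.024, near the median of 0.0255, so the wide spread was found with culture 4 only. The placing of others also turned without culture 4, when Thbs1, Thbs3, Gpc4 and Chrdl1 were above the median, at 0.0256 to 0.0284, and Thbs2, Thbs4, Sparc, Sparcl1 and Gpc6 below it.

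Sparcl1 was the only factor whose levels spread enough for a search for genes of like pattern (log2 range of 0.5 or more at a mean of at least 1 CPM). Of 10730 genes with a mean of at least 10 CPM, the nearest over the 4 cultures were Anxa1, which encodes annexin A1, Adra2a, an adrenergic receptor, and Tinagl1, a matrix protein. Their centred log2 levels differed from those of Sparcl1 by a root mean square of 0.0149, 0.0166 and 0.0186. Anxa1 had 20.5 CPM in culture 4 and 35.2 to 36.5 CPM in the others. Since the pattern is 1 low culture, 52 genes came within 0.05 of it, and nothing about a link between them follows.

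Partners of these factors were counted in lists. Of 14 thrombospondin receptors and partners 12 were expressed in every culture, with a median of 35.2 CPM. The highest per length were Calr, a chaperone that also serves as a cell-surface receptor for thrombospondin 1 (534.6 ± 11.5 RPKM), and the integrins Itgb1 (407.6 ± 11.4 RPKM) and Itgav (37.9 ± 2.76 RPKM). Cacna2d1, the synaptic receptor of thrombospondins, had 42.6 CPM in culture 4 and 42.8 to 43.4 CPM in the others, and was singled out after its values were seen. In culture 4, 4 of the 13 genes with a mean of at least 1 CPM were lower by more than 1.5-fold and 0 were higher, beside 5.66% lower and 2.42% higher over all genes. These 4 had low means, of 1.09 to 4.52 CPM.

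Of 11 further SPARC family genes and hevin partners 8 were expressed, with a median of 12.2 CPM. After Fstl1 the highest was Nlgn2, a postsynaptic adhesion protein of the neuroligin family (18.6 ± 0.72 RPKM). In culture 4, 3 of the 9 genes with a mean of at least 1 CPM were lower by more than 1.5-fold (all genes, 5.66%).

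Of 21 genes of the glypican family, their receptors and heparan sulfate enzymes 20 were expressed, with a median of 90.4 CPM. Sulf2, a sulfatase that trims heparan sulfate, had 95.7 ± 21.6 RPKM, with 289.4 CPM in culture 4 and 482.9 to 490.2 CPM in the others. Ptprf, a receptor phosphatase that binds heparan sulfate proteoglycans, had 65.5 ± 3.54 RPKM. Ext1, a subunit of the heparan sulfate polymerase, had 47.5 ± 0.38 RPKM. In culture 4, 3 of 20 genes were lower by more than 1.5-fold and 1 was higher (all genes, 5.66% lower and 2.42% higher).

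Of 18 genes of the chordin family and the BMP pathway 15 were expressed, with a median of 12.9 CPM. The highest were the receptor Bmpr1a (56.7 ± 4.05 RPKM), the secreted antagonist Nbl1 (47.2 ± 4.85 RPKM) and Bmp1, a protease that cleaves chordin (43.1 ± 3.64 RPKM). In culture 4, 2 of 15 genes were lower by more than 1.5-fold (all genes, 5.66%).

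Of 12 other released modulators of synapses 11 were expressed, with a median of 47.7 CPM. They were led by Ptn, the growth factor pleiotrophin (365.4 ± 25.1 RPKM), Ncan, the matrix proteoglycan neurocan (333.6 ± 97.5 RPKM), and Apoe, the main lipid carrier of astrocytes (281.1 ± 43.02 RPKM). In culture 4, 4 of 11 genes were lower by more than 1.5-fold and 0 were higher (all genes, 5.66% lower and 2.42% higher). Ncan was among the lower ones, at 1348 CPM against 2717 to 2788 CPM. Tgfb1, with a mean of 4.52 CPM, was also among them and is counted as well with the thrombospondin partners above. On the same scale Sparc had 1061 ± 26.8 RPKM.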

How the data were processed

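RNA of 4 cultures was sequenced by the submitters as poly-A libraries, made with a stranded kit from 500 ng of total RNA and 14 PCR cycles, per the labels' protocols. Per the submitters' processing notes, the tools were STAR 2.7.2b, featureCounts 1.6.4 and Subread, with bcl2fastq 2.20.0.422 and cutadapt, and the build was GRCm38.p6. The sources used here give no settings for them, nor whether strand was used in counting. The authors deposited estimated counts (31.7% of the nonzero values had a fractional part) with a combined exon length for each gene. They were rounded to whole numbers for the tests. No entry lacked a gene.

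CPM used the raw column sums. At these depths 1 read was 0.0236 to 0.0268 CPM, and a total of 3 counts was taken as the floor. Counts from PCR reads are not independent molecules, so this covers counting error only. Each factor was tested against every gene that passed edgeR's default filter (17105 genes) with edgeR 4.0.16. The quasi-likelihood test was two-sided and used 8 counts a pair, terms for library and gene, and an offset of log library size times length. Adjustment was Benjamini-Hochberg over all 153900 comparisons. SEs were calculated back from the F statistic. Tests of 1 factor share its counts, so that moderation can understate the error. For Sparcl1, fitted last for this reason (an order chosen after seeing the data), the total degrees of freedom came to 51288, and values without moderation were preferred against genes that are no factor, since moderated p-values there are too small. On simulated data for this comparison (17105 genes), it called 24.4% of 1.25-fold, 73.8% of 1.5-fold and 100% of 2-fold differences, and 0.021% of equal pairs. In that simulation 152100 comparisons were of equal pairs, every gene had the same spread, and no culture stood apart. In the data 97.1% of comparisons were called, so the adjustment was milder. These rates therefore do not carry over to the data. Deviations between cultures were taken on log2 CPM with 0.5 count added. BCV used TMM. GENCODE M21 transcripts were matched by Entrez identifier, and coding lengths came from it, since no protein table was used here. Alternatives were no length term, other lengths, DESeq2 1.42.0, no filter, other scalings, no moderation, each culture left out, and cultures 1 to 3 summed.

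The members, although taken by symbol, and the lists were chosen with earlier results of these data known. Named were all 9 factors, the 3 genes of each pathway list with the highest mean RPKM, genes overlapping a factor, and the 3 genes nearest in pattern. A gene that this rule would name is not reported here. Start windows were matched for 5 of the 9 factors.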

Additional observations from a re-analysis of the deposited data

Results flagged for a closer look

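Of 13 values checked (the level of each of the 9 factors and 4 ratios within families), 3 had a culture far from the other 3. Chance flags about 5% of such values where the cultures are alike, but culture 4 stood apart over the whole table. The share of all genes flagged by this rule was not counted. The number flagged therefore cannot be read as an excess particular to these factors. Sparcl1 had 669.7 CPM in culture 4, where the others had 1139 to 1158 CPM. The ratio of Sparc to Sparcl1 was 5.26 in culture 4 and 3.09 to 3.25 in the others, which rests on the same Sparcl1 value. Thbs3 had 50.6 CPM in culture 2, where the others had 54.1 to 54.9 CPM. It was flagged only narrowly, and culture 2 was 0.93-fold the mean of the others. The coefficient of variation of Thbs3 was 3.56%.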

How the results depend on the processing

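Of the 9 factors, 8 were expressed also with TPM, with a minimum of 5 CPM and with any culture left out, and 9 with a minimum of 0.5 CPM. The share of all genes was taken only at 1 CPM in every culture, where it was 32.2%. Sparcl1 in culture 4 was the only factor past 1.5-fold under every scaling (log2 deviation -0.81 with TMM or DESeq2 size factors). Of the 36 pairs, 36 were called with DESeq2, with every length, with no filter and without moderation, 33 to 36 with a culture left out and 33 with cultures 1 to 3 summed as 1 sample. Of the 8 neighbouring pairs, 5 to 8 were called with a culture left out and 5 with cultures 1 to 3 summed. Over all 153900 comparisons, 148149 to 150877 were called with a culture left out, 145287 with cultures 1 to 3 summed and 148824 with DESeq2. Nearly any pair was thus called under these settings, so the counts of pairs by themselves say little. GENCODE lengths and the fit without moderation were added after seeing the data. The length decided the sign of 5 ratios among the 9 factors, and of Gpc6 over Gpc2 and Sparcl1 over Fstl1 among the family pairs. With coding lengths and GENCODE transcripts the log2 ratio was -0.93 and -0.996 for Thbs1 over Gpc4, -1.27 and -0.41 for Thbs2 over Chrdl1, and -0.76 and -0.21 for Thbs2 over Gpc6. It was -1.67 and -0.55 for Thbs3 over Chrdl1 and -1.15 and -0.36 for Thbs3 over Gpc6, which without a length term were -0.57 and -0.40. The number of factors with a BCV under the median of all genes was 5 to 7 with a culture left out, and without culture 4 it was in part made up of other factors (Sparcl1 and Thbs4 came in, Thbs1, Thbs3, Gpc4 and Chrdl1 dropped out). With genes of any count as background, 33.0% of 29656 genes were past 1.5-fold in culture 4. The same filter gave 21.9%, 21.6% and 22.2% in cultures 1, 2 and 3. No paired analysis was possible because the samples form 1 group. Depth limits Thbs4, with 141 counts in all.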
